A study of Homo sapiens with 6 samples.

Results

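The genes described here encode proteins that bind, modify or carry APEX1, the main apurinic/apyrimidinic endonuclease of base excision repair and a redox regulator of transcription factors. They are 9 genes, taken by symbol from a list of APEX1 interactors, modifying enzymes and nuclear transport factors, out of 32192 genes in the count table. The members are NPM1, YBX1, DROSHA, SIRT1, EP300, HDAC1, XPO1, KPNA1 and KPNA2, and all 9 were found in every library and passed the filter on low counts.

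The cells were A549, a human lung adenocarcinoma epithelial line. The APEX1-OE group (3 libraries) carried a pIRES-hrGFP-1a plasmid with a FLAG-tagged APEX1 coding sequence, and the Ctrl group (3 libraries) carried a control plasmid. Transfection was transient, so a library mixes cells that took up plasmid with cells that did not, and fewer cells of one kind and less RNA per cell cannot be told apart. The labels number the libraries but do not say that they came from separate cultures, so the p-values measure the spread between these libraries, which may be technical.

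APEX1 protein works in the nucleus, the nucleolus, the cytoplasm and the mitochondria, and its place and activity depend on the proteins it meets. Importin alpha adaptors, which include KPNA1 and KPNA2, recognise the localization signal near its N terminus and bring it into the nucleus, and XPO1 exports proteins that carry a leucine-rich signal. The acetyltransferase EP300 acetylates lysines in the same N-terminal stretch and the deacetylase SIRT1 removes such marks, while HDAC1 and YBX1 meet APEX1 at gene promoters, NPM1 binds it in the nucleolus and DROSHA meets it in microRNA processing. A change in the amount of these messengers is a different thing from a change in binding, which RNA-seq does not measure.

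The libraries held between 28131955 and 41009197 counts. The APEX1 messenger had 33500, 50335 and 48345 counts in the APEX1-OE libraries and 6551, 7998 and 8384 in the Ctrl libraries. The log2 fold change was 2.42 with a standard error of 0.171 (edgeR quasi-likelihood test with Benjamini-Hochberg adjustment, adjusted p = 0.00809), and plasmid and chromosomal transcripts cannot be told apart in these counts. With 1 library left out at a time, APEX1 kept a log2 fold change of at least 2.36, but its adjusted p was above 0.05 in 4 of the 6 such edgeR fits (0.118 and 0.0674 with replicate 2 or 3 of APEX1-OE left out, 0.210 and 0.207 with replicate 1 or 2 of Ctrl left out). Of 9 markers named for A549, 8 had a mean of at least 1 FPKM (fragments scaled by transcript length and library total), EPCAM was at 0.18 to 0.52 FPKM, and CDKN2A, which A549 has lost, had 0 to 2 counts. Among markers of other cells, PTPRC, CD3E, COL1A2, PECAM1, VWF and CDH5 had at most 10 counts in any library, CD68 (leukocytes) was at 1.0 to 1.49 FPKM, and COL1A1 and DCN (fibroblasts) were at 0.50 to 0.73 and 0.04 to 0.16 FPKM. Of the alveolar type II markers, SFTPC, SFTPB and NKX2-1 had at most 7 counts, while LAMP3 was at 3.92 to 7.12 and ABCA3 at 9.71 to 13.5 FPKM.

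The libraries stood apart in a way that the groups did not explain. The first principal component (PC1) of log2 CPM (counts scaled by library total and TMM) took 72.6% of the variance. Its low side held the Ctrl libraries 1 and 2 with APEX1-OE replicate 1, and its high side held the APEX1-OE libraries 2 and 3 with Ctrl replicate 3. Each member is therefore given below by condition and, where the result depends on it, also with the side of PC1 as a term of the fit. The sides were read from these libraries and are not groups of the study.

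None of the 9 genes was called different between APEX1-OE and Ctrl. The count was 0 of 9 at an adjusted p under 0.05 (edgeR quasi-likelihood test with Benjamini-Hochberg adjustment over 16971 genes), where 0.00589% of all tested genes, APEX1 alone, were called. At an unadjusted p under 0.05 the count was again 0 of 9, against 0.695% of all genes. In all 9 genes the CPM values of the groups overlapped, where 3.39% of tested genes had groups that did not overlap and 1.38% had every APEX1-OE library above every Ctrl library. On deposited FPKM, limma likewise called 0 of 9, against 0.0054% of genes. The fitted log2 fold changes ran from 0.00 for YBX1 to 0.51 for SIRT1 with a median of 0.21, and 9 of 9 were above 0, where 57.5% of all tested genes were above 0 and their median was 0.03. The adjusted p was 1.0 for each of the 9.

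NPM1 (ENSG00000181163.13, chr5:171387116-171411810, plus strand, GRCh38) encodes nucleophosmin, an abundant nucleolar chaperone of ribosomal proteins and histones that binds APEX1. Its level was 99.9, 222.0 and 285.1 FPKM in APEX1-OE replicates 1, 2 and 3 and 136.2, 134.0 and 233.2 FPKM in Ctrl replicates 1, 2 and 3. APEX1-OE replicate 1 was the lowest library and APEX1-OE replicate 3 the highest, so the Ctrl values lay inside the APEX1-OE range. The mean was 202.4 ± 94.1 FPKM in APEX1-OE and 167.8 ± 56.6 in Ctrl (SD, n = 3 each, exact two-sided permutation p = 0.7). The log2 fold change from the counts was 0.23 with a 95% interval from -0.54 to 1.00.

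YBX1 (ENSG00000065978.17, chr1:42682418-42703805, plus strand) encodes the Y-box binding protein, a cold shock domain protein that binds DNA and messenger RNA and regulates multidrug resistance genes together with APEX1. It was the most abundant of the 9, at 300.2, 410.6 and 425.3 FPKM in APEX1-OE and 351.8, 353.8 and 409.5 FPKM in Ctrl. The lowest and the highest library were both APEX1-OE. On the CPM scale its highest library was 1.16 times its lowest, the narrowest spread of the 9. Its log2 fold change was 0.00 with a 95% interval from -0.37 to 0.38.

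DROSHA (ENSG00000113360.16, chr5:31400494-31532196, minus strand) encodes the nuclear RNase III that cuts primary microRNA transcripts. It stood at 3.08, 6.76 and 7.35 FPKM in APEX1-OE and at 3.82, 3.76 and 6.87 FPKM in Ctrl. In both groups the values fell into a lower and a higher level, with replicates 1 and 2 of Ctrl and replicate 1 of APEX1-OE at the lower one. Its log2 fold change was 0.22 with a 95% interval from -0.54 to 0.97.

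EP300 and SIRT1 write and erase lysine acetylation. EP300 (ENSG00000100393.9, chr22:41092592-41180077, plus strand), a transcriptional coactivator, was at 2.10, 5.68 and 4.74 FPKM in APEX1-OE and 2.67, 2.66 and 5.25 in Ctrl. Its log2 fold change was 0.21 with a 95% interval from -0.63 to 1.05. SIRT1 (ENSG00000096717.11, chr10:67884656-67918390, plus strand), an NAD-dependent deacetylase, was at 1.65, 4.37 and 3.92 FPKM in APEX1-OE and 1.74, 1.78 and 3.31 in Ctrl. SIRT1 had the largest fitted log2 fold change of the 9, 0.51 with a standard error of 0.365 and a 95% interval from -0.34 to 1.35, and APEX1-OE replicate 1 was its lowest library on the FPKM scale. Without that library the log2 fold change of SIRT1 was 0.76 and its adjusted p was 0.507 (Benjamini-Hochberg over edgeR's quasi-likelihood p-values), beside an unadjusted p of 0.0241 in a fit where 7.61% of all genes were under 0.05 unadjusted.

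HDAC1 (ENSG00000116478.11, chr1:32292083-32333635, plus strand) encodes the zinc-dependent deacetylase of the Sin3, NuRD and CoREST corepressors. It was at 23.8, 25.1 and 31.1 FPKM in APEX1-OE and at 25.1, 25.2 and 27.9 FPKM in Ctrl. Its 3 Ctrl libraries were the closest of any member on the CPM scale, 68.3 ± 0.810 CPM (SD, n = 3), and they lay inside the APEX1-OE range. Its log2 fold change was 0.01 with a 95% interval from -0.40 to 0.42, which on the linear scale runs from 0.759 to 1.34 times.

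The transport factors differed in level from each other within each library. KPNA2 (ENSG00000182481.8, chr17:68035636-68047364, plus strand) was at 34.3, 56.7 and 63.5 FPKM in APEX1-OE and 46.6, 42.9 and 56.9 in Ctrl. KPNA1 (ENSG00000114030.12, chr3:122421902-122514945, minus strand) was at 4.52, 9.34 and 9.81 FPKM in APEX1-OE and 6.0, 5.62 and 8.70 in Ctrl. XPO1 (ENSG00000082898.16, chr2:61476032-61538741, minus strand), the exportin also called CRM1, was at 9.72, 23.9 and 27.0 FPKM in APEX1-OE and 12.4, 12.7 and 23.3 in Ctrl. In all 3 genes APEX1-OE replicate 1 was the lowest library and APEX1-OE replicate 3 the highest. The log2 fold changes were 0.04 for KPNA2 (95% interval -0.45 to 0.53), 0.18 for KPNA1 (-0.45 to 0.82) and 0.29 for XPO1 (-0.53 to 1.10). KPNA2 exceeded KPNA1 by 6.07 to 7.76 times in FPKM across the 6 libraries, and the groups overlapped in that ratio.

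**Figure D1:**
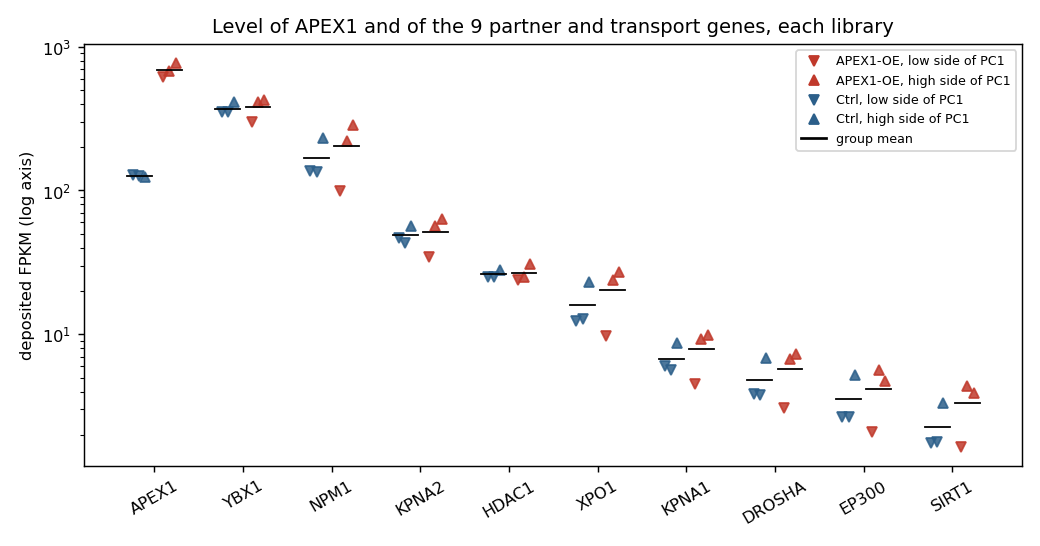
Deposited FPKM on a log axis for APEX1 and the 9 genes, ordered by Ctrl level, with 1 triangle per library (red APEX1-OE, blue Ctrl, pointing down on the low and up on the high side of PC1) and a line at each group mean. APEX1 separates by group, 618 to 768 against 124 to 129 FPKM, while each of the 9 genes overlaps between the groups.

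The order of the levels per length was the same in every library. In Ctrl it ran from YBX1 (371.7 ± 32.8 FPKM, SD, n = 3) through NPM1, KPNA2 (48.8 ± 7.29), HDAC1 (26.1 ± 1.62), XPO1 (16.1 ± 6.20), KPNA1 (6.77 ± 1.68), DROSHA (4.82 ± 1.78) and EP300 (3.53 ± 1.49) to SIRT1 (2.28 ± 0.895). For each of the 8 neighbouring pairs the first gene was above the next in 6 of 6 libraries. The ranges over all 6 libraries lay apart only between YBX1 and NPM1, NPM1 and KPNA2, and KPNA2 and HDAC1, and the ranges of the other neighbours overlapped. Within their families in Ctrl, KPNA2 was first of 6 importin alpha genes, HDAC1 first of 11 histone deacetylases and YBX1 first of 6 cold shock domain genes. SIRT1 was number 5 of 7 sirtuins, where SIRT6 was first at 22.7 FPKM, and EP300 was number 6 of 10 acetyltransferases.

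The spread that the groups did not explain was shared by most of the 9. In 8 of 9 genes, all but HDAC1, every library on the high side of PC1 was above every library on the low side, which also held for 35.5% of all tested genes. The highest library exceeded the lowest by 2.34 times in CPM for NPM1, 2.31 for SIRT1, 2.29 for EP300, 2.28 for XPO1, 1.96 for DROSHA, 1.79 for KPNA1, 1.52 for KPNA2 and 1.16 for YBX1. HDAC1 had a ratio of 1.201 and another order on that scale, with APEX1-OE replicate 2 lowest and APEX1-OE replicate 3 highest. On deposited FPKM, which has no TMM factor, APEX1-OE replicate 1 was its lowest library. There its low-side libraries stood at 23.8 to 25.21 and its high-side libraries at 25.11 to 31.05. The TMM factors were 0.909 to 0.958 on the low side and 1.036 to 1.097 on the high side. The part of scaling in the HDAC1 order was not tested. Over the 6 libraries the correlation of log2 CPM with PC1 was at least 0.925, the value of YBX1, for the 8 genes other than HDAC1 and 0.035 for HDAC1. Of all tested genes, 26.5% had a correlation with PC1 of at least 0.9. As a description of 6 libraries that share this component, 23 of the 36 pairs of members had r above 0.9, and the lowest r was -0.26, between EP300 and HDAC1. The share over all pairs of tested genes was not counted.

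GC content moved with PC1 across genes. The correlation of a gene with PC1 was lower where the GC content of its longest transcript was higher (Spearman rho -0.76 across 16746 genes, which are not independent replicates). The members lay between 37.7% GC for XPO1 and 49.8% for EP300, where the median of tested genes was 49.0%. HDAC1 and YBX1 had the same rounded GC content, 47.5%, and differed in their relation to PC1. Both varied little, with a range of log2 CPM over the libraries of 0.26 for HDAC1 and 0.22 for YBX1. The median range of tested genes was 0.9. The part of GC content in these values was not tested.

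**Figure D2:**
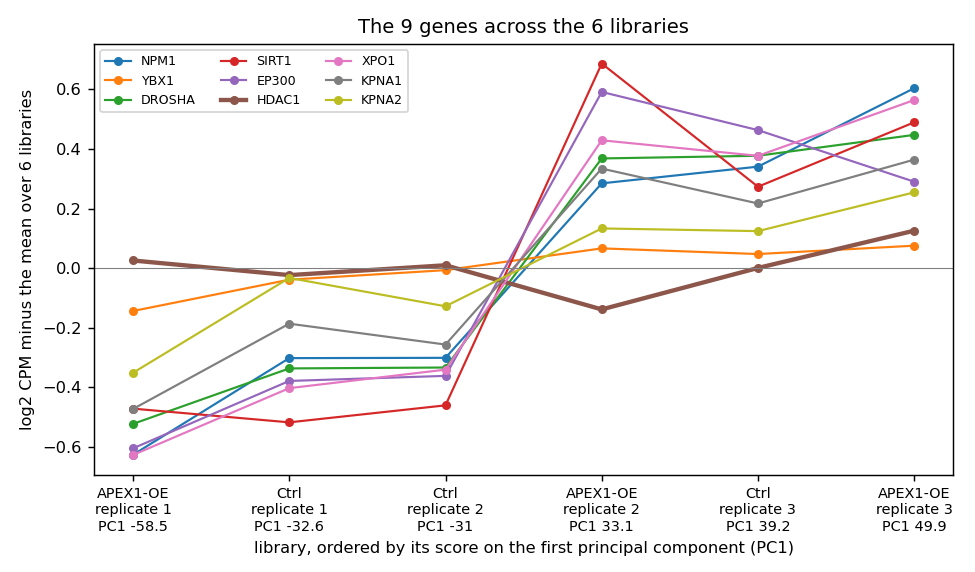
Log2 CPM of each of the 9 genes minus its mean over the 6 libraries (vertical axis), with libraries ordered from left to right by their PC1 score. The lines of 8 genes step up between the low and the high side, in libraries of both groups. HDAC1 (thick brown line) does not, and spans 0.26 on the log2 scale from its lowest to its highest library, beside 0.22 for YBX1.

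With the side of PC1 as a term, the intervals narrowed and most signs turned. SIRT1 stayed highest at 0.18 (95% interval -0.09 to 0.45) and HDAC1 was at 0.02 (-0.20 to 0.23). The other 7 were below 0, at -0.12 for EP300, -0.10 for NPM1, -0.10 for KPNA2, -0.07 for DROSHA, -0.06 for XPO1, -0.05 for KPNA1 and -0.05 for YBX1. None was called (edgeR quasi-likelihood test with Benjamini-Hochberg adjustment, where 0.0236% of genes were called), and none had an unadjusted p under 0.05, where 11.6% of genes did. The median over the 9 was -0.06, beside 0.01 over all tested genes. The intervals of this fit ran from -0.36 to 0.45 over the members. Its term was read from these same libraries, so the intervals can be too narrow and are not bounds. Taken alone, the difference between APEX1-OE and Ctrl on the low side was below 0 for 7 of 9, from -0.32 for NPM1 to -0.12 for YBX1, with SIRT1 at 0.02 and HDAC1 at 0.03. On the high side it ran from -0.02 for EP300 to 0.32 for SIRT1. Each side held 1 library of one group and 2 of the other, so these within-side differences carry no test. PC1 scores also differed within a side. On the low side they were -58.5 for APEX1-OE replicate 1 and -32.6 and -31 for Ctrl replicates 1 and 2. A term of 2 levels does not take up such a difference. Without APEX1-OE replicate 1 and with the side as a term, 5 of 9 were above 0. They were NPM1 at 0.077, SIRT1 at 0.28, XPO1 at 0.0855, KPNA1 at 0.096 and KPNA2 at 0.036. In that fit the low side held no APEX1-OE library. It therefore compares the groups on the high side alone, as the high-side differences above do, and is not a separate check. The part of these scores in the signs was not tested.

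**Figure D3:**
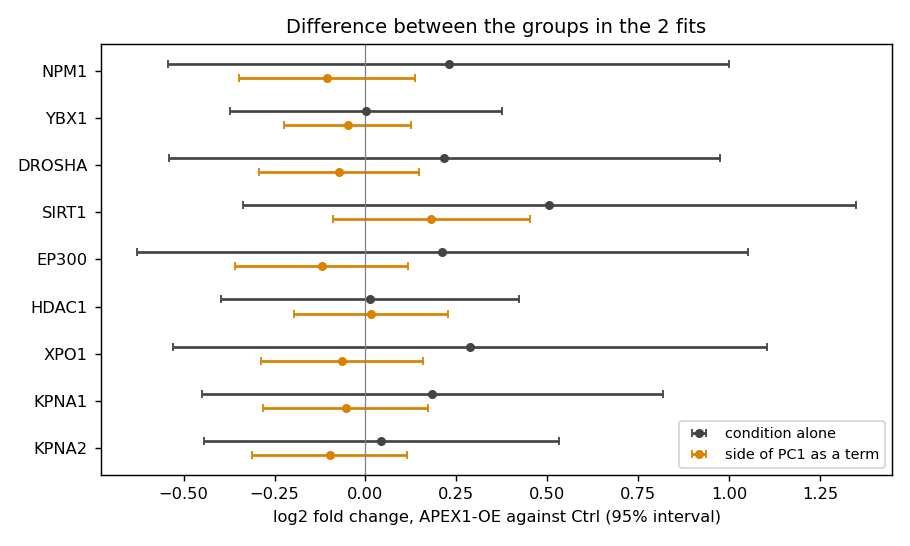
Log2 fold change of APEX1-OE against Ctrl for the 9 genes, with 95% intervals, from the fit of condition alone (grey) and from the fit with the side of PC1 as a term (orange). Every interval includes 0 in both fits, and the orange intervals are the narrower ones.

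One call arose when libraries were left out. In the fit with the side of PC1 and without APEX1-OE replicate 3, NPM1 had a log2 fold change of -0.21 and an adjusted p of 0.0236 (edgeR quasi-likelihood test with Benjamini-Hochberg adjustment). That fit called 16.6% of all genes, 2864 of 17214, and kept 1 APEX1-OE library on each side. No other member was called in any of the 21 alternatives.

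APEX1 rose, and the amount of its messenger relative to each of the 9 genes differed between the groups. Per unit of YBX1 messenger, APEX1 stood at 2.06, 1.66 and 1.81 in APEX1-OE and at 0.366, 0.357 and 0.302 in Ctrl, as ratios of FPKM within a library. Per unit of NPM1 the ratio was 6.18, 3.06 and 2.69 in APEX1-OE and 0.946, 0.942 and 0.531 in Ctrl. APEX1 was thus below NPM1 and YBX1 in each Ctrl library and above both in each APEX1-OE library. Per unit of KPNA2, the more abundant adaptor, it was 18.0, 11.99 and 12.1 against 2.77, 2.95 and 2.18. For HDAC1 the ratio was 25.9 ± 1.18 in APEX1-OE and 4.86 ± 0.377 in Ctrl (SD, n = 3), and for SIRT1 it was 242.0 ± 116.3 and 60.8 ± 20.3. These ratios carry the difference in APEX1 itself and are a description of messenger levels, not of protein. For what share of all tested genes the groups lie apart in such a ratio was not counted.

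**Figure D4:**
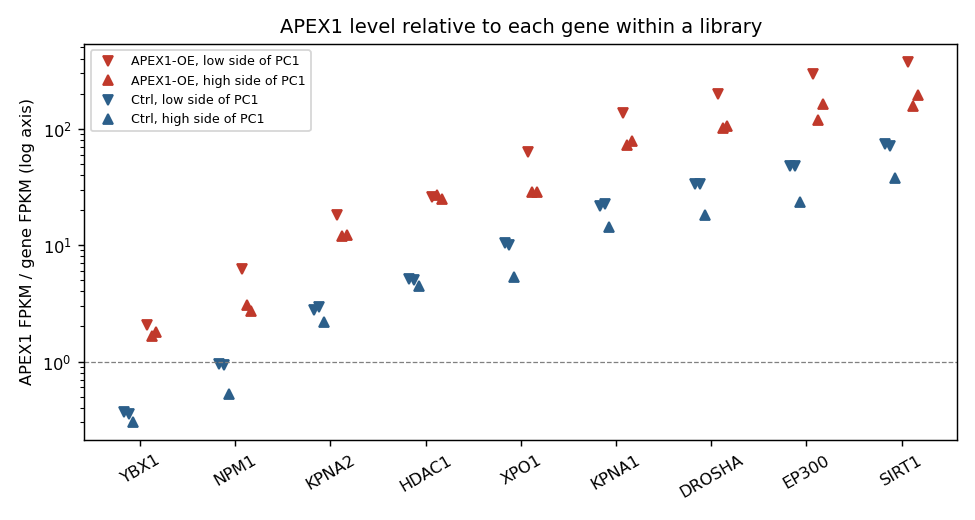
FPKM of APEX1 divided by FPKM of each of the 9 genes in the same library (log axis), red for APEX1-OE and blue for Ctrl, with triangles pointing down or up for the low or high side of PC1 and a dashed line at a ratio of 1. The groups lie apart for each gene, and only YBX1 and NPM1 have Ctrl libraries under the line. The ratios carry the difference in APEX1 itself, and the share over all tested genes was not counted.

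The ratios between the 9 genes are free of library scaling. Among the 36 pairs the groups did not overlap in 3, or 8.33%, where 5.21% of all pairs of tested genes had groups that did not overlap. All 3 pairs contained SIRT1. EP300 per SIRT1 was 1.27, 1.30 and 1.21 in APEX1-OE and 1.53, 1.49 and 1.59 in Ctrl, so every APEX1-OE library was below every Ctrl library. XPO1 per SIRT1 was 5.89, 5.46 and 6.88 against 7.10, 7.13 and 7.03, and DROSHA per SIRT1 was 1.87, 1.55 and 1.88 against 2.20, 2.11 and 2.08. With 3 against 3 libraries an exact two-sided permutation test cannot go below p = 0.1. These pairs were singled out after their values were seen, share SIRT1, and are given as a description.

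The wider pathways were taken from 14 lists with 130 genes, of which 127 were tested. None was called in either direction, in the fit of condition alone or with the side of PC1, and 83 of 127, or 65.4%, were above 0 in the first fit and 62 in the second. Of the 6 tested importin alpha genes, 5 were above 0 with a median log2 fold change of 0.25, and the highest was KPNA3 at 0.39. Among 11 import receptors of the importin beta family, 10 were above 0 with a median of 0.18, and TNPO1, a carrier of RNA-binding proteins, had 0.42. Among 7 exportins the median was 0.29, and XPOT, which exports transfer RNA, had 0.41 and XPO7 -0.03. With the side of PC1 in the fit these medians were -0.063, -0.069 and 0.016. Without APEX1-OE replicate 3 they were 0.058, 0.049 and 0.072, and their highest values were 0.47 for importin alpha without APEX1-OE replicate 1 and, without Ctrl replicate 3, 0.48 for the import receptors and 0.58 for the exportins. In the Ran cycle, which powers transport, 2 of 7 genes were above 0 with a median of -0.011, which was 0.079 with the side of PC1 and -0.15 to 0.039 with 1 library left out. Its nuclear pore protein RANBP2 had the largest value of all lists at 0.64 (standard error 0.447, adjusted p = 1.0 in edgeR's quasi-likelihood test) and RANBP1 was at -0.08.

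Enzymes of acetylation showed the same absence of calls. The 10 acetyltransferases had a median of 0.12, with KAT6B highest at 0.47 and KAT8 lowest at -0.02. The 11 histone deacetylases had a median of 0.04, with HDAC2, the close paralogue of HDAC1, at 0.36 and HDAC4 at -0.08. The 7 sirtuins held both extremes, SIRT1 at 0.51 and the mitochondrial SIRT4 at -0.50, with a median of 0.0055. The 15 partners of HDAC1 in corepressor complexes had a median of 0.00 and lay between SAP30 at -0.19 and RCOR1 at 0.19. With the side of PC1 these medians were 0.048 for the acetyltransferases, 0.13 for the histone deacetylases, 0.16 for the sirtuins and -0.091 for the corepressor partners. With 1 library left out they ran from 0.044 to 0.21, -0.12 to 0.088, -0.30 to 0.11 and -0.071 to 0.038, the lowest for both deacetylase families without APEX1-OE replicate 1.

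In the RNA-handling lists, the 12 genes of microRNA processing had a median of 0.08, with DICER1, which cuts precursors after DROSHA, at 0.41 and DDX17 at -0.03. The 11 nucleolar genes had a median of 0.10, from NPM3 at -0.07 to the box C/D core protein NOP58 at 0.55. The 6 cold shock domain genes had a median of 0.13, with LIN28B, a blocker of let-7 maturation, at 0.46 and CARHSP1 at -0.07. The SET complex, which contains APEX1 and several targets of granzyme A, had a median of -0.03 over 5 genes, from NME1 at -0.09 to SET at 0.15. The 13 ubiquitin ligases and other binders had a median of -0.03, from HSPA1A at -0.20 to HIF1A at 0.41, and the 7 genes of mitochondrial import had a median of 0.01, from TIMM23 at -0.12 to TOMM20 at 0.09. With the side of PC1 the medians were 0.022 for microRNA processing, -0.028 for the nucleolar genes, -0.030 for the cold shock domain genes, -0.060 for the SET complex, -0.046 for the other binders and -0.080 for mitochondrial import. With 1 library left out they ran from 0.054 to 0.23, 0.063 to 0.25, 0.020 to 0.12, -0.030 to 0.15, -0.025 to 0.026 and -0.089 to -0.023. With the side of PC1 as a term, 18 of the 127 genes, or 14.2%, had an unadjusted p under 0.05, beside 11.6% of all genes, and 15 of the 18 were above 0. In that fit 51.6% of all tested genes were above 0, and the direction of all genes under the threshold was not counted. Of the 15, all but GADD45A (0.35) had a correlation with PC1 of -0.833 or lower. The other 3 had 0.815 or higher. The part of PC1 in these directions was not tested.

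**Figure D5:**
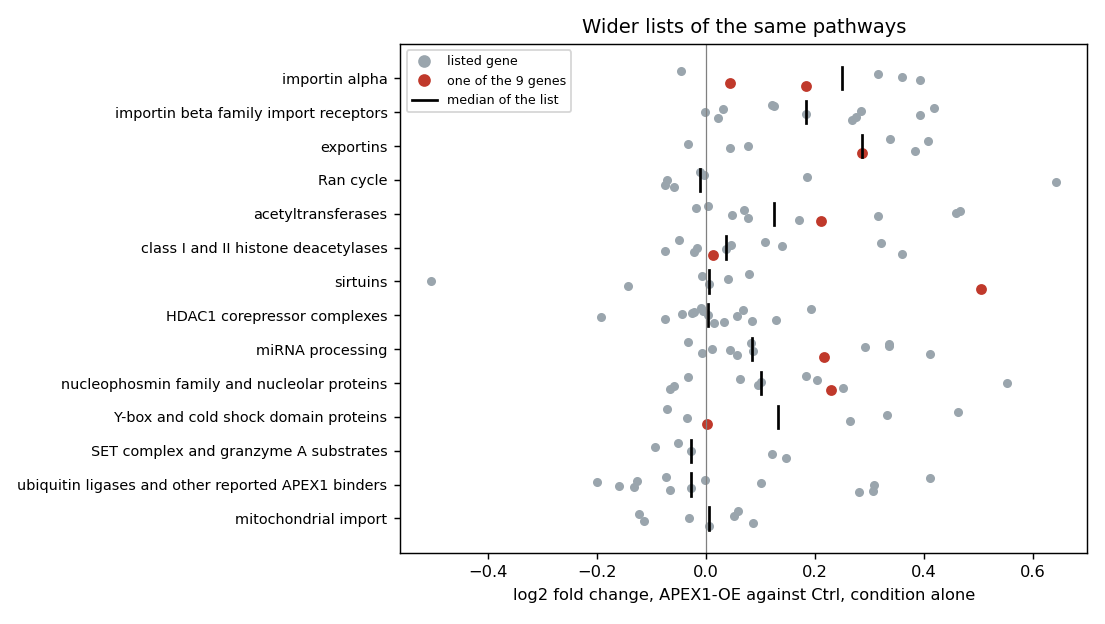
Log2 fold change of APEX1-OE against Ctrl from the fit of condition alone for each tested gene of the 14 lists (grey points), the 9 genes in red, and the median of each list as a black bar. No gene was called, and the points spread from -0.50 for SIRT4 to 0.64 for RANBP2.

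The genes with the most similar profile were named by Pearson's r of log2 CPM over the 6 libraries. The nearest gene was NUDT21 for NPM1 and IPO7, an import receptor, for XPO1, both at 0.9998. It was ZNF664 for DROSHA (0.9997), TFCP2 for KPNA1 (0.9995), SPTBN1 for EP300 (0.999), EBNA1BP2 for KPNA2 (0.999), MPZL1 for YBX1 (0.9987) and TIAM1 for SIRT1 (0.9983). Such values were common, since 878 to 3164 genes had r above 0.95 with each of these 8 members. HDAC1 had no gene above 0.95, and its nearest, the pseudogene RP11-486A14.1, was at 0.9489.

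YBX1 takes its name from the Y box, a promoter sequence that holds an inverted CCAAT element. The promoters of the 9 genes are shown for the CCAAT element alone. The bases around it were not part of the search, so a match need not be a Y box. A search of the 250 bases before each RefSeq start site (GRCh38.p14) for CCAAT on either strand, written CCAAT or ATTGG on the strand of the gene, found it in 6 of the 11 listed promoters of the 9 genes and in 32.0% of 35116 promoters. No match lay in these windows for SIRT1, EP300 and KPNA1. NPM1 and XPO1 each also had a listed promoter without a match. For NPM1 the match lay in the window at chr5:171386866-171387115, and the window at chr5:171387599-171387848 had none. A promoter of YBX1, DROSHA, XPO1 and KPNA2 had more than 1 match, which held for 9.5% of promoters. The first stretch runs from 150 to 51 bases before the YBX1 start (chr1:42682268-42682367, plus strand) and holds 3 elements, and the lines after it show the other genes with more than 1, in windows of 25 bases read 5′ to 3′ on the strand of the gene, with the element in capitals.
YBX1: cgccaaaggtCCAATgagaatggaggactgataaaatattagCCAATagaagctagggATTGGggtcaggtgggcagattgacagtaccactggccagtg
DROSHA, chr5:31532254-31532278: gcgttttcggATTGGaggacgtagg
DROSHA, chr5:31532201-31532225: tttgctgacgATTGGtctagacgtc
DROSHA, chr5:31532167-31532191: cgttgacgcgCCAATcaccgcgcac
XPO1, chr2:61538417-61538441: ggcgctcgggCCAATgagagatagg
XPO1, chr2:61538374-61538398: ctggaactgaCCAATaggagggcgg
KPNA2, chr17:68035636-68035660: ttcaaatccaCCAATgggcacacag
KPNA2, chr17:68035667-68035691: ctcgaaccagCCAATcggaatgcgg
These matches are letters in a window and not measured sites. The RefSeq start sites of DROSHA, XPO1 and KPNA2 lie inside the GENCODE gene coordinates given above. The elements shown for XPO1 and KPNA2, and the last one shown for DROSHA, therefore fall within those coordinates.

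Pseudogene copies of these genes held few of the counted reads. NPM1 had 8 pseudogene rows in the table, which together held at most 0.0351% of its counts, YBX1 had 4 with at most 0.0295% and HDAC1 had 1 with at most 0.0372%. No such row reached 10 counts in a library. Only uniquely mapped reads were counted, so reads that fit a gene and a copy equally well entered neither row, and their number was not measured.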

How the data were processed

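Polyadenylated RNA from 6 samples of A549 cells was sequenced as stranded libraries, 3 with an APEX1 plasmid and 3 with a control plasmid. The authors aligned reads to GRCh38 with TopHat2, and deposited raw counts per gene, not normalised, and FPKM per gene, scaled by length and library total, both from uniquely mapped reads. FPKM was listed for all but 241 of the 32192 genes.

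Counts were fitted in edgeR 4.0.16 (R 4.3.3) with filterByExpr (minimum count 10), TMM scaling and the robust quasi-likelihood F test, two-sided, with Benjamini-Hochberg adjustment over 16971 genes at 0.05. The study's methods name edgeR and no covariate. Intervals are 95% and cover the spread between libraries. FPKM was tested by exact permutation, with a smallest p of 0.1. Coordinates came from GENCODE v44 on GRCh38 and promoters from RefSeq (GRCh38.p14), which held all 9 genes. The steps were tested on simulated data.

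The members and the wider lists were chosen with earlier results of these data known. The side of PC1 was read from these libraries. Named genes were the 9 members, APEX1, the largest rise and fall in each list, and the genes most correlated with each member (the first of 2 is printed). Alternatives were DESeq2 1.42.0 and its size factors, library totals, no filter, limma 3.58.1 on log2(FPKM + 1) or log2(FPKM + 0.1), a replicate block, the side of PC1, and leaving out each library, the last also together with the side of PC1, chosen after seeing the data.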

Additional observations from a re-analysis of the deposited data

How the results depend on the processing

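Over 21 alternatives the 9 genes gave 189 log2 fold changes, of which 128 kept their direction and their side of the threshold and 61 turned in sign. With the side of PC1 as a term, 4 genes were called in all, 2 members were above 0, and the median of the members was -0.064, with NPM1 at -0.10, YBX1 at -0.049, DROSHA at -0.073, EP300 at -0.12, XPO1 at -0.064, KPNA1 at -0.055 and KPNA2 at -0.098. With a replicate block 2 genes were called and YBX1 was at -0.0018; the same-numbered libraries correlated at 0.61, -0.52 and 0.70 in their deviations from the group means, so the numbers were not taken as pairs. The count of genes called was 10 without a filter on low counts, 2 in limma on log2(FPKM + 0.1) and 118 at an unadjusted p. Leaving out 1 library, with or without the side of PC1, gave 0 to 2864 genes called, 0 to 1 members called, 1 to 9 members above 0 and a median of -0.24 to 0.48. The log2 fold changes then ran from -0.33 to 0.49 for NPM1, -0.12 to 0.054 for YBX1, -0.19 to 0.50 for DROSHA, -0.24 to 0.55 for EP300, -0.051 to 0.080 for HDAC1, -0.26 to 0.58 for XPO1, -0.25 to 0.39 for KPNA1, -0.27 to 0.19 for KPNA2 and, without a turn in sign, 0.01 to 0.81 for SIRT1. The 2864 calls and the called member, NPM1, came without APEX1-OE replicate 3 and with the side of PC1, and the median of 0.48 without Ctrl replicate 3; the cause was not tested. With the side of PC1, leaving out APEX1-OE replicate 1 or Ctrl replicate 3 compares the groups on 1 side alone. The medians of the wider lists also moved with 1 library left out, as given beside them. No member was called in the other alternatives. With 3 libraries a group, the fits of condition alone left room for linear changes of NPM1 from 0.687 to 2.00 times and of SIRT1 from 0.791 to 2.55 times.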
